A study of Mus musculus with 8 samples.

Results

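Replication-dependent histone genes are the genes whose symbol in the GENCODE M21 annotation of the mouse starts with Hist1h, Hist2h, Hist3h or Hist4h. There were 70 of them among 55450 annotated genes: 56 on chromosome 13, 10 on chromosome 3, 3 on chromosome 11 and 1 on chromosome 6. By the family in their symbols, 6 belong to the linker histone H1, and 20, 19, 12 and 13 to the core histones H2A, H2B, H3 and H4. The annotation lists 67 as protein coding and 3, Hist1h2aj, Hist1h2al and Hist3h2bb-ps, as pseudogenes. The data are contacts measured by H3K27ac HiChIP, in which neighbouring DNA ends are ligated and chromatin that carries acetylated lysine 27 of histone H3 is pulled down, a mark of active promoters and enhancers. A count is a read pair joining 2 anchors, or 2 places inside 1 anchor. It depends both on the acetylation of the ends and on how often they meet, which these libraries cannot tell apart. Of 415681 listed loops, 724 had an anchor within 5 kb of a histone gene start, and these used 16 of 30044 anchors.

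The libraries came from 4 lines of mouse embryonic stem cells, with 2 technical replicates of each. B6 was line B6 5-1 of strain C57BL/6J, and D2 was line D2 5-5 of strain DBA/2J. B6-13D2 was line QJ 6-1 with the genotype B6.D2-(rs30079041-rs51756099)/Bakr, a B6 background with a chromosome 13 interval from D2. D2-13B6 was line XE 2-4, the reciprocal congenic, labelled D2.B6-(rs29224292-rs13469455)/Bakr on the samples and with rs51756099 as the end marker in the design text. All lines grew in serum with LIF and the inhibitors PD0325901 and CHIR99021. Each genotype was 1 line, so the p-values of the fits to loops and anchors measure only the spread between technical replicates, and not that between independently derived lines. The marker positions were not used here, and whether the histone genes of chromosome 13 lie inside the exchanged interval was not determined.

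Replication-dependent histone genes supply the histones that package newly copied DNA, and they are transcribed mainly in S phase. They lie in clusters, carry no introns in most cases, and give mRNAs that end in a stem-loop instead of a poly(A) tail. In the nucleus, the clusters gather at the histone locus body, a compartment that holds the coactivator NPAT and the factors that process the 3′ end. H1 binds linker DNA, H2A and H2B form dimers, and H3 and H4 form the tetramer at the core of the nucleosome.

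The sequences below are the 200 bases before the RefSeq start of 6 genes (GRCm38.p6). They show the gene pair of the 5-kb bin with the most histone contacts (Hist1h4h and Hist1h2af) and an H2B promoter with an octamer (Hist1h2bm). They also show a pair of copies with equal bases in this stretch (Hist1h2bq and Hist1h2br). The last is a testis-specific H2B gene that had no listed contact (Hist1h2ba). Capitals mark matches on either strand to the TATA box core TATAAA, the CCAAT box core CCAAT and the octamer ATTTGCAT. The stretch of Hist1h4h holds none of these letters. Hist1h4h (chr13:23530844-23531043), Hist1h2af (chr13:23533675-23533874), Hist1h2bm (chr13:21721844-21722043) and Hist1h2br (chr13:21833543-21833742) are on the plus strand. Hist1h2bq (chr13:21810200-21810399) and Hist1h2ba (chr13:23934157-23934356) are on the minus strand.
Hist1h4h: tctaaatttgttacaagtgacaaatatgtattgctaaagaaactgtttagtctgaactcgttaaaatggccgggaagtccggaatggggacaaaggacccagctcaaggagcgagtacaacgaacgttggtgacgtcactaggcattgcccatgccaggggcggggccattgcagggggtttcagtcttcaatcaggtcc
Hist1h2af: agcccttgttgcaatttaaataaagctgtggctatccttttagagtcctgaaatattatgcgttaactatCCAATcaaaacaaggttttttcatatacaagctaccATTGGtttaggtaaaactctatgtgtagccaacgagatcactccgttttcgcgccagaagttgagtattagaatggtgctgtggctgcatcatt
Hist1h2bm: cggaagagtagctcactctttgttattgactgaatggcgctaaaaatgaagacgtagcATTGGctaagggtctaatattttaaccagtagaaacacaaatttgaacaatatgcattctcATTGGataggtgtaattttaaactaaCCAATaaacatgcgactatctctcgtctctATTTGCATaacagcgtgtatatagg
Hist1h2bq: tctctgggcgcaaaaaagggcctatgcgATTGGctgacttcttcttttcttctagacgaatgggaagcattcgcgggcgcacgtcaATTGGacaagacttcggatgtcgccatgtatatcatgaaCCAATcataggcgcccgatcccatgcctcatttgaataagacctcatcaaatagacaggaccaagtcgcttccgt
Hist1h2br: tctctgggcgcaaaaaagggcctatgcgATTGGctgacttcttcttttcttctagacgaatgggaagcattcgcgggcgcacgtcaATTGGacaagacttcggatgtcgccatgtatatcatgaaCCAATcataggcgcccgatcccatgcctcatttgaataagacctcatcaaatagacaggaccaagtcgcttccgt
Hist1h2ba: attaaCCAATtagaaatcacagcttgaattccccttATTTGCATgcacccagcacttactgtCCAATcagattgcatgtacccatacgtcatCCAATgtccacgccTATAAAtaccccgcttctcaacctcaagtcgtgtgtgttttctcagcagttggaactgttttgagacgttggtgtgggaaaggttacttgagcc
RefSeq held a promoter entry for 62 of the 70 genes. In the 250 bases before the start, CCAAT was found in 82.3% of the 62, against 33.8% of all 32851 promoters. The shares were 46.8% against 12.4% for TATAAA, and ATTTGCAT was in 13 of the 62 against 1.60% of all. All 6 H1, 18 H2A and 16 H2B promoters held CCAAT, as did 80.0% of the H3 promoters and 25.0% of the H4 promoters. ATTTGCAT was found in 38.9% of the H2A and 37.5% of the H2B promoters and in none of the matched H1, H3 and H4 promoters. Divergent H2A and H2B pairs start close together, so their windows can cover the same bases and a match can count for both genes. Both genes held ATTTGCAT in the pairs Hist1h2ah and Hist1h2bk, Hist1h2ae and Hist1h2bg, and Hist1h2aa and Hist1h2ba. The H2A and H2B shares are thus not independent. The printed stretches of Hist1h2bq and Hist1h2br were equal at 200 of 200 bases.

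On chromosome 13, the histone genes of the Hist1 locus formed 3 subclusters, split where neighbouring starts were more than 200 kb apart. The gaps between subclusters were 202 kb and 1488 kb, and the largest gap inside one was 61.4 kb, so the first split lies just above the limit. The testis-specific pair Hist1h2ba and Hist1h2aa starts 170.5 and 171 kb beyond the last start of subcluster 3. It lies past the edge of the window used for the subclusters and was left out, although the limit alone would have joined it to subcluster 3. Anchors are named here by 1 of their genes. Subcluster 1, with 19 genes, held the anchors Hist1h3h (chr13:21710001-21740000, 6 histone genes), Hist1h4k (chr13:21745001-21770000, 3), Hist1h1b (chr13:21775001-21795000, 4) and Hist1h4n (chr13:21810001-21835000, 6). Subcluster 2, with 5 genes, was the anchor Hist1h4i (chr13:22020001-22055000, 5). Subcluster 3, with 29 genes, held Hist1h1d (chr13:23530001-23600000, 14), Hist1h1e (chr13:23620001-23625000, 2), Hist1h2bc (chr13:23680001-23690000, 2), Hist1h4c (chr13:23695001-23700000, 2) and Hist1h1a (chr13:23735001-23770000, 9). The other anchors were Hist1h2al, a pseudogene apart on chromosome 13 (chr13:51200001-51205000), Hist2h2be (chr3:96215001-96230000, 3 genes) and Hist2h4 (chr3:96235001-96280000, 7), Hist3h2ba (chr11:58935001-58945000) and Hist3h2a (chr11:58950001-58960000), and Hist4h4 on chromosome 6 (chr6:136800001-136815000). Coordinates are 1-based on GRCm38. Only Hist1h2aa and Hist1h2ba had no anchor within 5 kb.

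Levels are given as CPM, counts scaled to a library total of 1000000. Library totals were 952040 and 737955 counts in B6, 831446 and 768078 in D2, 982278 and 1357176 in B6-13D2, and 1395052 and 1425304 in D2-13B6. The congenic libraries were thus deeper than the parental ones, and depth and congenic status move together. Chromosome 11 took 13.9% and 13.96% of the counts of D2-13B6 against 10.0% to 10.6% elsewhere, and chromosome 13 took 2.80% and 2.82% against 3.10% to 3.42%. The part of these shifts in the results was not tested beyond the scalings named below. Of 10 embryonic stem cell markers 9 had an anchor, with a summed level of 4411 to 4917 CPM in B6, 4731 to 4872 in D2, 4395 to 4816 in B6-13D2 and 5099 to 5510 in D2-13B6. Of 10 fibroblast feeder markers 5 had an anchor (50.1 to 89.0 CPM over all libraries), and Thy1, Twist1, Twist2, Dcn and Fap had none. Of 5 primitive endoderm markers only Pdgfra had an anchor (4.42 to 12.6 CPM), and none of 6 mesoderm and neural markers did.

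At most of the 16 histone anchors contacts were lowest in B6, intermediate in D2 and B6-13D2 and highest in D2-13B6. The Hist1h1d anchor, which holds genes of all 5 families, had 315 and 363 counts in B6, 682 and 714 in D2, 814 and 1098 in B6-13D2, and 1309 and 1798 in D2-13B6. In CPM, these were 411 ± 114 in B6, 875 ± 77.3 in D2 and 819 ± 13.9 in B6-13D2, with 1099.9 ± 229 in D2-13B6 (SD, n = 2 each). Both B6 libraries lay below all others, and the replicates of D2-13B6 lay far apart. The Hist1h1a anchor, with the H1 genes Hist1h1a and Hist1h1c and genes of every core family, had 95 and 127 counts in B6, 285 and 279 in D2, 359 and 460 in B6-13D2, and 510 and 751 in D2-13B6. Its level was 136 ± 51.1 CPM in B6 and 353 ± 14.5, 352 ± 18.8 and 446 ± 114 in D2, B6-13D2 and D2-13B6 (SD, n = 2 each). The means of D2 and B6-13D2 differed by less than their SD there. The small anchor at Hist1h2ac and Hist1h2bc had 26 and 36 counts in B6, 79 and 75 in D2, 86 and 126 in B6-13D2, and 138 and 148 in D2-13B6. Its level of 38.05 ± 15.2 CPM in B6 compares with 96.3 ± 1.86, 90.2 ± 3.74 and 101 ± 3.48 in the same order of lines (SD, n = 2 each).

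In subcluster 1, the Hist1h1b anchor, with the H1 gene Hist1h1b and H2A, H2B and H3 genes, had 85 and 95 counts in B6, 200 and 216 in D2, 200 and 289 in B6-13D2, and 372 and 549 in D2-13B6. That is 109 ± 27.9 CPM in B6 against 261 ± 28.8 in D2 and 208 ± 6.60 in B6-13D2, with 326 ± 83.8 in D2-13B6 (SD, n = 2 each). Both B6 libraries lay below the other 6. The Hist1h3h anchor had 182 ± 25.0 CPM in B6 against 372 ± 39.4, 316 ± 6.37 and 433 ± 84.7 in D2, B6-13D2 and D2-13B6. The Hist1h4i anchor of subcluster 2 had 198 and 168 counts in B6, 336 and 297 in D2, 351 and 433 in B6-13D2, and 464 and 587 in D2-13B6. There, D2 was highest at 395 CPM ± 12.3, against 218 ± 13.9 in B6, 338 ± 27.1 in B6-13D2, with 372 ± 56.0 in D2-13B6 (SD, n = 2 each). D2-13B6 overlapped both D2 and B6-13D2 at this anchor, and B6 lay below all of them.

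**Figure D1:**
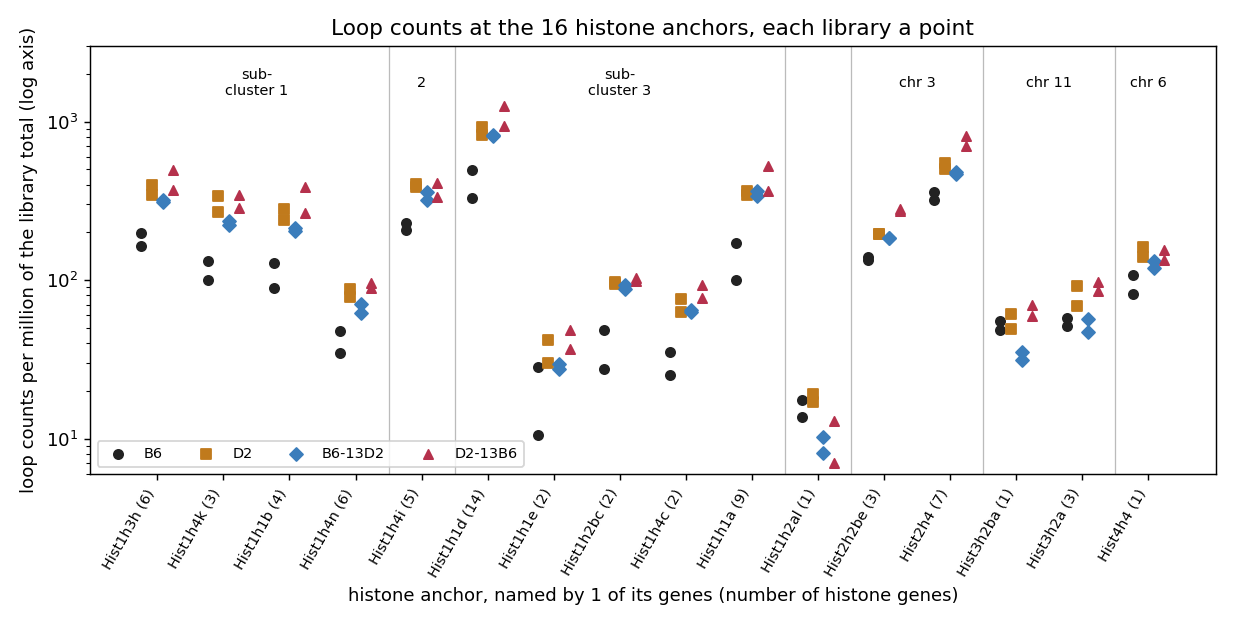
Loop CPM (log axis) at each of the 16 histone anchors. Each point is 1 library, coloured by line, and the number after a name is that of histone genes at the anchor. At 12 of the 16 anchors both B6 libraries lie below all other libraries.

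Over the 16 anchors, both B6 libraries lay below all other libraries at 12, against 4.53% of all 21211 tested anchors. Both D2-13B6 libraries lay above all others at 7, against 6.47%. The mean of B6 was lowest at 13 anchors and that of D2-13B6 highest at 13. The order B6, B6-13D2, D2, D2-13B6 was seen at 11. An anchor's sum counts each loop that touches it, so a loop between 2 histone anchors enters both sums and the anchors are not independent.

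The crossed design separates the background genome from the allele of the interval. For the background effect, the libraries of D2 and D2-13B6 were compared with those of B6 and B6-13D2. Of the 16 histone anchors 15 rose in the D2 background and none fell, where 11.9% of all tested anchors rose and 24.8% were called in either direction (edgeR's quasi-likelihood test, FDR of 0.05). The median log2 fold change was 0.76 over the 16 and 0.01 over all tested anchors. The largest were at Hist1h1b (0.97, SE 0.11, FDR 1.01e-12), Hist1h4k (0.94, SE 0.10, FDR 2.17e-13) and Hist1h1a (0.88, SE 0.10, FDR 6.51e-12). Hist1h1d had 0.77 (SE 0.08, FDR 1.41e-12). Hist1h4n, Hist1h3h, Hist1h1e, Hist1h2bc and Hist1h4c had log2 fold changes of 0.75 to 0.82, and Hist1h4i had 0.51 (SE 0.09, FDR 2.27e-06). The pseudogene anchor Hist1h2al was the one not called, with 8 to 18 counts per library and a log2 fold change of 0.16 (SE 0.30, FDR 0.757). Leaving out each library in turn left 13 to 15 anchors called.

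**Figure D2:**
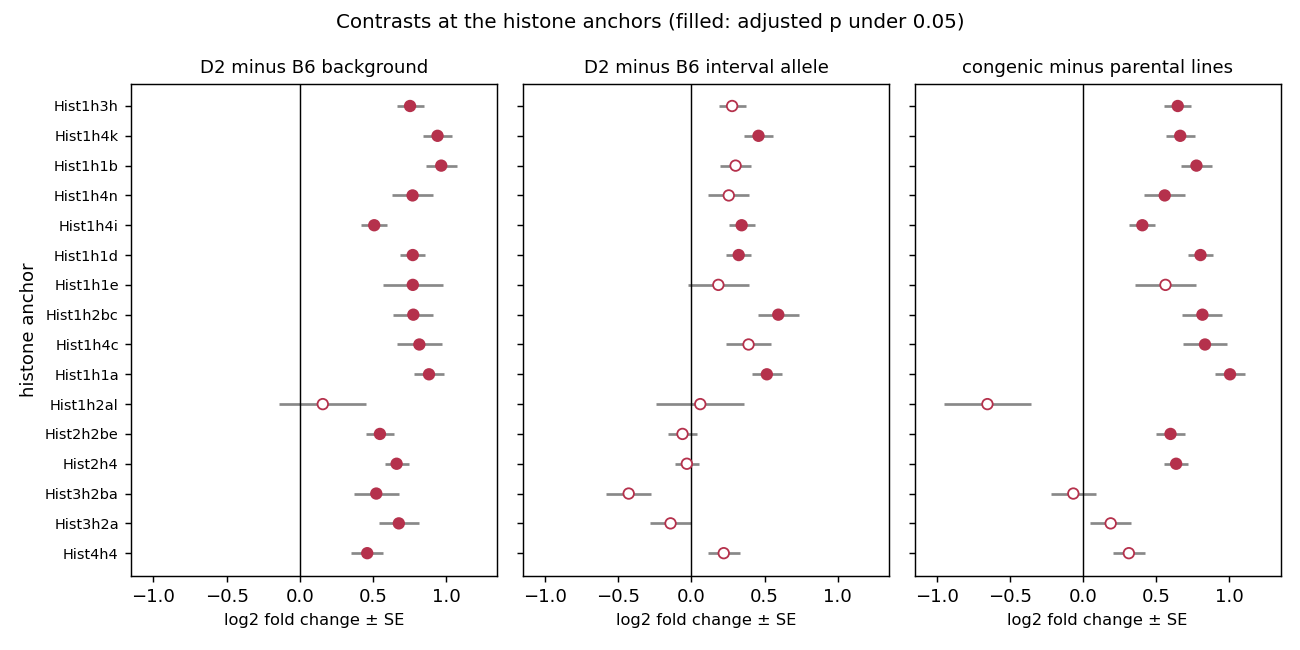
Log2 fold change with its SE at the 16 histone anchors for the 3 contrasts of the crossed design, from the edgeR fit over all tested anchors. Filled points passed an FDR of 0.05. In the left panel 15 of the 16 points are filled, and all lie right of 0.

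This average covers unlike differences within the alleles of the interval. Between the lines with the D2 allele, D2 minus B6-13D2 had a median log2 fold change of 0.13 over the 16 anchors, with -0.12 at Hist1h1a, -0.03 at Hist1h1d, -0.04 at Hist1h2bc and -0.05 at Hist2h2be. Between the lines with the B6 allele, D2-13B6 minus B6 had a median of 1.33, with 1.89 at Hist1h1a and 1.58 at Hist1h1d. These values are sums and differences of fitted contrasts and were not tested singly. At the 15 called anchors the difference of D2-13B6 from B6 was the larger one, except at Hist3h2ba.

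The contrast of congenic with parental lines sets B6-13D2 and D2-13B6 against B6 and D2. Of the 16 anchors, 11 were higher in the congenic lines and none was lower, where 3.79% of all tested anchors were higher and 4.83% were called in either direction. The median log2 fold change was 0.62 over the 16 and -0.01 over all tested anchors, and -0.17 over the 916 tested anchors of chromosome 13. Hist1h1a had a log2 fold change of 1.00 (SE 0.10, FDR 3.75e-12), Hist1h4c of 0.83 (SE 0.15, FDR 8e-05), Hist1h2bc of 0.82 (SE 0.14, FDR 1.73e-05) and Hist1h1d of 0.80 (SE 0.08, FDR 2.55e-11). Both anchors of chromosome 3 were called, with 0.60 (SE 0.10, FDR 7.14e-06) at Hist2h2be and 0.64 (SE 0.08, FDR 1.5e-08) at Hist2h4. The congenic libraries were also the deeper ones, and depth and congenic status cannot be told apart here.

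For the interval effect, lines with the D2 allele (D2 and B6-13D2) were compared with those with the B6 allele (B6 and D2-13B6). Of the 16 anchors 5 were higher with the D2 allele and none was lower, where 2.91% of all tested anchors were higher and 6.16% were called in either direction. These were Hist1h2bc (log2 fold change 0.59, SE 0.14, FDR 0.00284), Hist1h1a (0.52, SE 0.10, FDR 0.000247), Hist1h4k (0.46, SE 0.10, FDR 0.00112), Hist1h4i (0.34, SE 0.09, FDR 0.00779) and Hist1h1d (0.32, SE 0.08, FDR 0.00963). This average too differed between the backgrounds. D2 minus D2-13B6 was -0.48 at Hist1h1d (FDR 0.00306) and -0.49 at Hist1h1a (FDR 0.00902), so at these anchors the D2 allele went with the lower level in the D2 background. At the other 3 it was not called, with -0.06 at Hist1h4i (SE 0.12, FDR 0.851), where the mean CPM of D2 lay above that of D2-13B6. All 5 lie on chromosome 13, whose tested anchors had a median log2 fold change of 0.15. With a scaling factor per chromosome, which takes that shift out, 3 anchors were called. Without D2 replicate 2 there were 2 calls, without B6 replicate 1 or D2-13B6 replicate 1 there were 3. The anchors of chromosome 3 had -0.06 (SE 0.10, FDR 0.802) at Hist2h2be and -0.03 (SE 0.08, FDR 0.888) at Hist2h4. The 3 contrasts use the same 8 libraries.

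Outside chromosome 13, the Hist2h4 anchor on chromosome 3, with genes of the H2A, H2B, H3 and H4 families, had 303 and 265 counts in B6, 457 and 387 in D2, 458 and 652 in B6-13D2, and 974 and 1157 in D2-13B6. In CPM, these were 339 ± 28.9, 527 ± 32.4, 473 ± 10.0 and 755 ± 80.3 (SD, n = 2 each). B6 lay below all other libraries and D2-13B6 above all. The Hist2h2be anchor had 137 ± 4.66, 195 ± 1.45, 185 ± 0.762 and 278 ± 4.81 in the same order, with no overlap between any of the lines. Its background effect was 0.55 (SE 0.10, FDR 3.84e-06), and that of Hist2h4 was 0.66 (SE 0.08, FDR 1.2e-10). Hist4h4 on chromosome 6, whose anchor also holds the start of the replication-independent gene H2afj, had 94.5 ± 17.8 CPM in B6 and 151 ± 16.3, 125 ± 8.46 and 145 ± 14.8 in D2, B6-13D2 and D2-13B6 (background effect 0.46, SE 0.11, FDR 0.000706). The anchors of chromosome 11 had background effects of 0.52 (SE 0.15, FDR 0.00683) at Hist3h2ba and 0.68 (SE 0.14, FDR 6.7e-05) at Hist3h2a. D2-13B6 had more counts on chromosome 11 as a whole, and with a scaling factor per chromosome Hist3h2ba was no longer called (0.28, FDR 0.199), while Hist3h2a had 0.43 (FDR 0.0139). D2 minus B6 was 0.09 at Hist3h2ba (FDR 0.858). With chromosome 11 left out of the fit, 13 of the other 14 histone anchors were called. The pseudogene anchor Hist1h2al had 13 and 13 counts in B6, 16 and 13 in D2, 8 and 14 in B6-13D2, and 18 and 10 in D2-13B6, which shows none of the order of the other anchors.

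Of the 724 histone loops, 127 had at least 5 counts in 2 libraries and were tested, among 44706 tested loops. In the background effect 35 histone loops rose and 4 fell in the D2 background, where 4.3% of all tested loops rose and 8.85% were called. Their median log2 fold change was 0.65, against 0.02 over all tested loops. Of the 10 loops inside 1 histone anchor 6 rose, and of the 29 between 2 histone anchors 15 rose, with none falling in either kind. Of the 88 loops that joined a histone anchor to another anchor, 14 rose and 4 fell. Among all 4686 tested loops inside 1 anchor, 424 rose in this contrast and the median was -0.04. Without B6 replicate 1, 24 histone loops were called, the fewest of any library left out, and DESeq2 called 17.

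The loop inside the Hist1h1d anchor had the most counts of any histone loop. It had 129 and 142 counts in B6, 280 and 311 in D2, 333 and 474 in B6-13D2, and 668 and 1012 in D2-13B6. Its background effect was 1.01 on the log2 scale (SE 0.09, FDR 8.51e-26), and congenic minus parental was 0.93 (SE 0.09, FDR 1.12e-19). The loop between the Hist1h4k and Hist1h1b anchors of subcluster 1 had 23 and 27 counts in B6, 56 and 84 in D2, 63 and 98 in B6-13D2, and 151 and 197 in D2-13B6 (background effect 1.22, SE 0.15, FDR 5.79e-14). The loop between Hist1h1d and Hist1h1a in subcluster 3 had 22 and 23 counts in B6, 62 and 82 in D2, 77 and 90 in B6-13D2, and 114 and 167 in D2-13B6 (background effect 1.13, SE 0.15, FDR 1.9e-11). In these 3 loops both B6 libraries had fewer counts than any other library, on the CPM scale too. D2-13B6 had the most counts but is the deepest line, and in CPM its libraries overlapped D2 at Hist1h4k to Hist1h1b and at Hist1h1d to Hist1h1a. The loop inside Hist2h4 on chromosome 3 had 99 and 72 counts in B6, 156 and 137 in D2, 158 and 240 in B6-13D2, and 377 and 456 in D2-13B6 (background effect 0.85, SE 0.11, FDR 4.49e-13). The loop of Hist4h4 to the anchor of Wbp11, which encodes a splicing factor, had 22 and 17 counts in B6, 65 and 63 in D2, 45 and 44 in B6-13D2, and 117 and 132 in D2-13B6 (background effect 1.52, SE 0.17, FDR 1.84e-17). That loop was higher in both D2-background lines than in any B6-background library, while its congenic minus parental value was 0.47 (SE 0.17, FDR 0.273).

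In the contrast of congenic with parental lines 12 histone loops were higher and none lower, where 0.552% of all tested loops were higher and 0.606% were called. Their median log2 fold change was 0.50, against 0.02 over all tested loops. Of the 12, 4 lay inside 1 anchor, 6 joined 2 histone anchors and 2 joined a histone anchor to another. Among all 4686 tested loops inside 1 anchor, 145 were higher in the congenic lines and the median was 0.05. After the loop inside Hist1h1d, the smallest FDR was that of the loop inside Hist1h1a, with 35 and 40 counts in B6, 86 and 84 in D2, 122 and 166 in B6-13D2, and 180 and 307 in D2-13B6 (1.12, SE 0.13, FDR 7.91e-14). Without D2-13B6 replicate 2, 6 histone loops were called, and without B6 replicate 1, 8 were. In the interval effect 4 histone loops were higher with the D2 allele and none lower, where 0.425% of all tested loops were higher and 0.986% were called, and 22 passed an unadjusted p of 0.05. They were Hist1h1d to Hist1h1a (0.63, SE 0.16, FDR 0.011), Hist1h4i to Hist1h1a (1.47, SE 0.41, FDR 0.0408), and the loops of Hist1h1a (1.30, SE 0.35, FDR 0.0296) and Hist1h1d (0.45, SE 0.13, FDR 0.0439) to the anchor of Abt1, which encodes an activator of basal transcription. No histone loop was called in this contrast with a scaling factor per chromosome, with DESeq2, or without any 1 of B6 replicate 1, D2 replicate 2, B6-13D2 replicate 1 and D2-13B6 replicate 1, and 1 was called without D2 replicate 1.

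Between single lines, which share libraries across these contrasts, D2 minus B6 gave 21 histone loops higher and 1 lower (2.65% of all tested loops were called). B6-13D2 minus B6 gave 15 higher and none lower (0.859%). D2 minus D2-13B6 gave none higher and 5 lower (0.922%). The loop inside Hist1h1d had log2 fold changes of 1.21 (SE 0.14, FDR 1.77e-14), 1.12 (SE 0.14, FDR 5.29e-12) and -0.73 (SE 0.12, FDR 7.95e-07) in these 3 contrasts. The loop inside Hist1h1a had 1.26 (SE 0.22, FDR 1.77e-06), 1.496 (SE 0.20, FDR 6.68e-10) and -0.75 (SE 0.16, FDR 0.00108). Of the 5 loops lower in D2 than in D2-13B6, 4 lay inside 1 anchor and 1 joined the chromosome 3 anchors Hist2h2be and Hist2h4 (-0.80, SE 0.17, FDR 0.00114). Single libraries moved these counts. Without B6 replicate 1, D2 minus B6 gave 11 calls and B6-13D2 minus B6 gave 3, and without D2 replicate 2 the first gave 14. B6-13D2 minus B6 gave 10 without B6-13D2 replicate 1. D2 minus D2-13B6 gave none without D2-13B6 replicate 2, with 7 at an unadjusted p under 0.05, and gave 1 without D2 replicate 1 and 3 without D2 replicate 2.

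The 4 histone loops lower in the D2 background each joined a histone anchor to another anchor. On chromosome 13, all 3 joined a histone anchor to the anchor of Btn2a2 (chr13:23485001-23520000), which encodes a butyrophilin. The loop to Hist1h1d had 45 and 59 counts in B6, 32 and 28 in D2, 116 and 154 in B6-13D2, and 49 and 53 in D2-13B6 (background effect -1.18, SE 0.16, FDR 1.68e-11). The loop to Hist1h4i had 14 and 12 counts in B6, 5 and 1 in D2, 16 and 12 in B6-13D2, and 3 and 5 in D2-13B6 (-2.0, SE 0.39, FDR 1.84e-05). The loop to Hist1h1a had 2 and 9, 2 and 0, 19 and 17, and 5 and 7 counts in the same order of lines (-2.03, SE 0.50, FDR 0.00146). The Btn2a2 anchor as a whole had 483 and 560 CPM in B6, 153 and 167 in D2, 768 and 711 in B6-13D2, and 145 and 163 in D2-13B6 (background effect -1.98, SE 0.09, FDR 2.2e-35). Both lines of the B6 background lay above both lines of the D2 background at Btn2a2, and B6-13D2 was the highest. On chromosome 6, the loop lower in the D2 background joined Hist4h4 to an anchor with no protein-coding start (-1.28, SE 0.38, FDR 0.0139). DESeq2 called 2 histone loops lower in the D2 background, and gave no adjusted p for 62 of the 127.

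The other anchors of the chromosome 13 window give the local comparison. There were 20 tested anchors in the window that spans the 3 subclusters that held no histone start, of which 7 rose and 1 fell in the background effect, where 11.9% of all tested anchors rose. Their median log2 fold change was 0.34, against 0.77 for the 10 histone anchors of the window. In the interval effect 3 were higher (2.91% of all) with a median of 0.28, against 0.33 for the 10 histone anchors. In the contrast of congenic with parental lines 3 were higher (3.79% of all) and the median was 0.00, against 0.72. The Zfp184 anchor, between subclusters 1 and 2, encodes a zinc finger protein and had 501 ± 19.5 CPM in B6, 844 ± 40.2 in D2 and 670 ± 39.3 in B6-13D2, with 655 ± 40.7 in D2-13B6. Its interval effect was 0.38 (SE 0.08, FDR 0.00053) and its congenic minus parental value 0.16 (SE 0.08, FDR 0.269), so D2-13B6 did not lie above D2 there. Pom121l2 next to it had an interval effect of 0.33 (SE 0.11, FDR 0.0409), and Abt1, near subcluster 3, one of 0.31 (SE 0.08, FDR 0.0073).

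Contacts of the 10 histone anchors of the chromosome 13 window fell into 4 classes. Contacts inside an anchor had 5836 counts over all libraries, contacts between anchors of a subcluster 3730, contacts between subclusters 1184, and contacts to other anchors 6253. In CPM, contacts between subclusters were 45.2 and 70.5 in B6, 162 and 167 in D2, 118 and 123 in B6-13D2, and 168 and 216 in D2-13B6. Each background is 2 lines with 2 technical replicates each, and the tests of classes permute single libraries, as if replicates of 1 line were as independent as different lines, so their p-values are too small. The 4 libraries of D2 background did not overlap the 4 of B6 background, with means of 178 ± 25.3 and 89.2 ± 37.7 (SD, n = 4 each; exact permutation test, two-sided p = 0.0286, the smallest that 4 against 4 can give; adjusted over 12 tests p = 0.171). Contacts inside anchors were 254 and 333 in B6, 611 and 682 in D2, 611 and 641 in B6-13D2, and 816 and 1198 in D2-13B6. The means of the backgrounds were 827 ± 262 and 460 ± 195 (SD, n = 4 each; exact permutation p = 0.0571, adjusted 0.171). This difference of 367 CPM was 243 CPM without D2-13B6 replicate 2. Contacts within a subcluster were 147 and 215 in B6, 439 and 538 in D2, 440 and 418 in B6-13D2, and 501 and 670 in D2-13B6 (exact permutation p = 0.0571 for the background, adjusted 0.171). For both of these classes the backgrounds overlapped, with B6-13D2 near the level of D2. None of the 12 tests of a class passed after adjustment, and with 12 tests the smallest p of this design cannot pass unless several tests reach it.

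**Figure D3:**
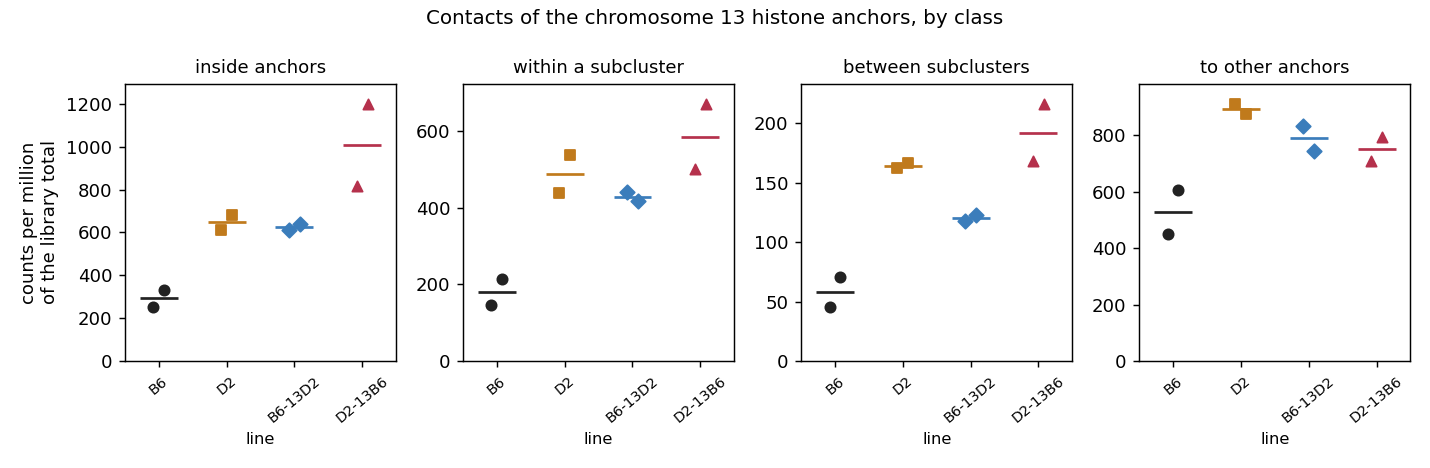
CPM in 4 classes of contacts of the chromosome 13 histone anchors. Points are libraries, horizontal lines the mean of 2 libraries, and every axis starts at 0. B6 is lowest in each class, and D2-13B6 is highest in each class except contacts to other anchors, where D2 is highest.

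Contacts to other anchors did not follow the order of the other classes. They were 451 and 606 CPM in B6, 909 and 876 in D2, 834 and 742 in B6-13D2, and 709 and 795 in D2-13B6. The share of all histone contacts that went to other anchors was 50.2% and 49.4% in B6, 42.9% and 38.7% in D2, 41.6% and 38.6% in B6-13D2, and 32.3% and 27.6% in D2-13B6. In the same libraries the share inside anchors was 28.3% and 27.2%, 28.8% and 30.2%, 30.5% and 33.3%, and 37.2% and 41.6%. The share between subclusters was 5.04% and 5.75% in B6, 7.65% and 7.36% in D2, 5.90% and 6.40% in B6-13D2, and 7.68% and 7.50% in D2-13B6. D2-13B6 had the smallest share of contacts to other anchors and the largest share inside anchors. Among contacts that stayed between histone anchors, the inside share was 56.9% and 53.8% in B6, 50.4% and 49.2% in D2, 52.3% and 54.2% in B6-13D2, and 54.9% and 57.5% in D2-13B6, so that D2-13B6 did not stand apart from B6 there.

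Long contacts joined the subclusters. Loops were ranked by counts among those of similar span, without matching the length of their anchors. A longer anchor can gather more counts, and Hist1h4i and Hist1h1a are 35 kb long and Hist1h1d 70 kb. The ranks are therefore not a measure of contact strength alone. The loop from Hist1h4i in subcluster 2 to Hist1h1d in subcluster 3 spans 1528 kb and had 10 and 11 counts in B6, 24 and 29 in D2, 17 and 37 in B6-13D2, and 46 and 69 in D2-13B6. With 243 counts in all, it ranked 1 of the 37362 listed loops whose span was within 10 percent of its own, where the median was 1 count. Its background effect was 1.13 (SE 0.22, FDR 2.54e-05). The loop from Hist1h3h in subcluster 1 to Hist1h1d, 1840.0 kb apart, had 2 and 7, 13 and 15, 10 and 16, and 19 and 27 counts in B6, D2, B6-13D2 and D2-13B6, and ranked 5 of 37649 (background effect 1.14, SE 0.32, FDR 0.00673). Hist1h1b to Hist1h1d ranked 12 of 39156 with 86 counts, Hist1h4k to Hist1h1d ranked 18 of 39410 with 69, and Hist1h4i to Hist1h1a ranked 20 of 38482 with 83. Hist1h1b to Hist1h1a ranked 59 of 24775 with 36 counts. The 4 loops between subclusters 1 and 2 among the 10 with most counts spanned 215 to 312.5 kb, and ranked 55 of 20343 (Hist1h3h to Hist1h4i, 141 counts) to 224 of 18686 (Hist1h1b to Hist1h4i, 90 counts). Of these 4, Hist1h4n to Hist1h4i rose in the D2 background (1.52, SE 0.33, FDR 0.000153), with 5 and 5 counts in B6, 16 and 9 in D2, 6 and 9 in B6-13D2, and 28 and 28 in D2-13B6. The other 3 had background effects of 0.59 to 0.74 and were not called.

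**Figure D4:**
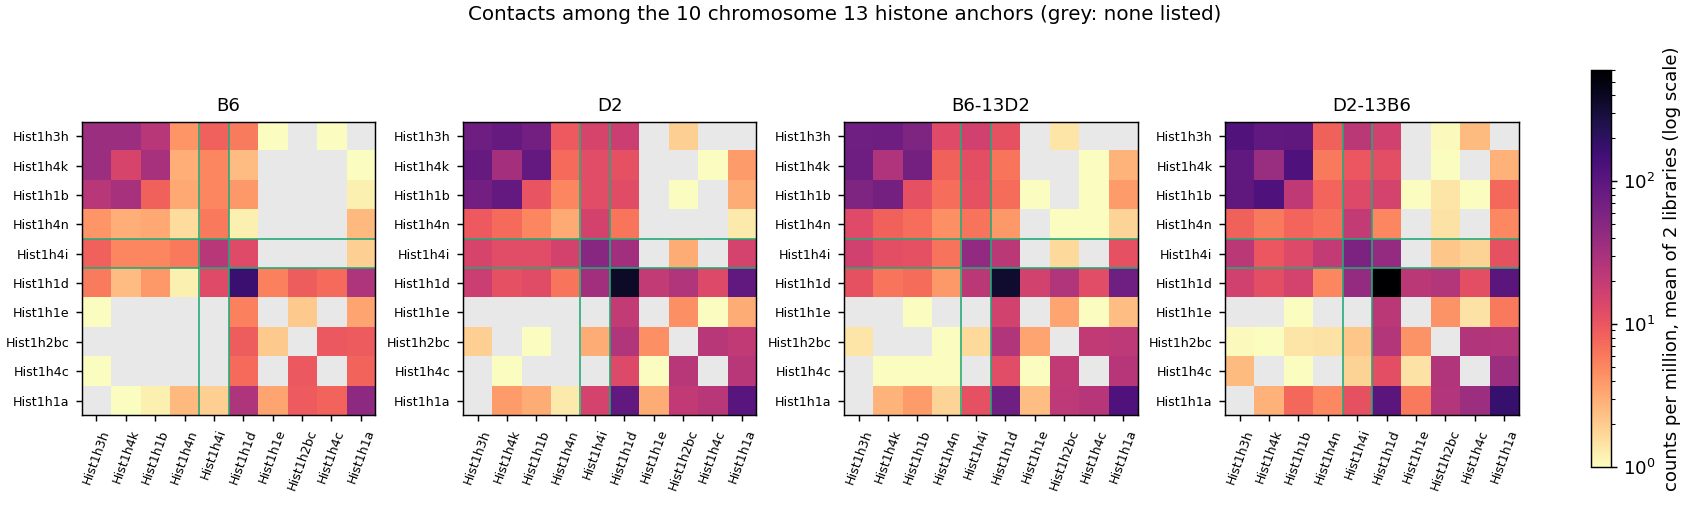
CPM (colour, log scale, mean of 2 libraries) between every pair of the 10 histone anchors of the chromosome 13 window, 1 panel per line, in their order on the chromosome. Lines mark the borders of the 3 subclusters, and grey cells had no listed loop or no count. The column of Hist1h1d has counts with all 10 anchors in every line.

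These contacts were compared with what separation alone gives, from the deposited pairs of 5-kb bins. The ratio is that of the observed counts to the mean count of all pairs of listed bins at the same separation. Over all libraries the ratio was 8.42 between subclusters 2 and 3, 4.67 between 1 and 3, and 1.44 between 1 and 2. It was 0.934 within a subcluster and 0.750 inside anchors. Between subclusters 2 and 3 it was 2.68 and 3.08 in B6, 8.23 and 9.63 in D2, 6.76 and 8.35 in B6-13D2, and 10.5 and 14.2 in D2-13B6. For subclusters 1 and 2, the B6 libraries had 0.651 and 0.674, below the expected count, and the others 1.40 to 2.19. For subclusters 1 and 3, the B6 libraries had 1.15 and 2.16, and the others 3.77 to 8.36. When the expected count was also scaled by the totals of both bins, the ratios were 4.25 between subclusters 2 and 3, 2.35 between 1 and 3, and 1.37 between 1 and 2. On this scale B6 was not lowest: between subclusters 2 and 3 the ratios were 6.50 and 3.98 in B6, 3.46 and 3.78 in D2, 3.13 and 4.67 in B6-13D2, and 4.98 and 3.87 in D2-13B6. Inside anchors they were 1.97 and 1.25 in B6, 0.778 and 0.668 in D2, 0.828 and 0.916 in B6-13D2, and 0.868 and 0.699 in D2-13B6. The bin totals hold these same contacts, so both scales are given, and neither was tested.

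**Figure D5:**
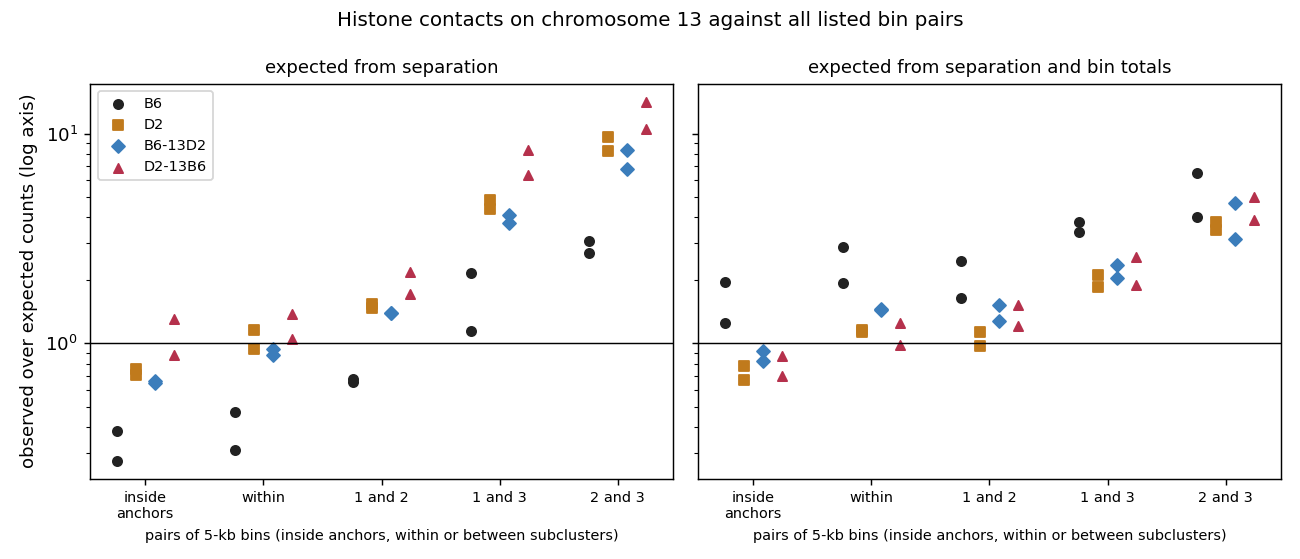
Observed over expected counts (log axis) for pairs of 5-kb bins inside anchors, within a subcluster, and between subclusters 1 and 2, 1 and 3, or 2 and 3. Each point is 1 library, with expectation from separation (left) or from separation and the totals of both bins (right). B6 is lowest in every class on the left and in none on the right.

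At the finer scale of 5-kb bins, the 70 gene starts fell into 38 bins, of which 36 were listed. Most bins hold starts of several genes, often in divergent pairs, so their counts cannot be assigned to 1 gene or family. In the chromosome 13 window, both B6 libraries lay below all other libraries in 24 of 26 bins, against 5.09% of all 54464 listed bins. Both D2-13B6 libraries lay above all others in 8 of 26, against 7.03%. The bin of Hist1h4h and Hist1h2af, whose promoters are printed above, had the most counts, with 56 and 49 in B6, 116 and 104 in D2, 122 and 165 in B6-13D2, and 197 and 267 in D2-13B6. It was followed by the bin of Hist1h4f and Hist1h1d with 939 counts in all, and the median of all listed bins was 195. In the window, the bins with H3 genes alone (Hist1h3g, Hist1h3e and Hist1h3d) had 665 to 788 counts, and those with H4 genes alone (Hist1h4j, Hist1h4d and Hist1h4b) had 583 to 761. The bin pair with the most counts was that of Hist1h3c and Hist1h2bb with Hist1h4b, 10 kb apart, with 5 and 1 counts in B6, 12 and 13 in D2, 28 and 29 in B6-13D2, and 27 and 50 in D2-13B6.

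Some bins hold near-identical gene copies, and how reads from them were mapped is not given in the sources used here. The bin of Hist1h2bq, Hist1h2ao and Hist1h4m had 4 counts over all 8 libraries, and that of Hist1h4n, Hist1h2ap and Hist1h2br had 99. In the reference, 81.9% and 71.0% of the 150-base windows of these bins occur elsewhere in the genome, a window being as long as a read. Over the whole Hist1h4n anchor the share was 51.6%, and it was 20.3% at Hist1h4k, 13.9% at Hist2h4 and at most 4.01% at the other histone anchors. The median over the 1429 anchors of chromosome 13 was 0% and the 95th percentile 51.8%. Counts at the Hist1h4n anchor are uncertain. Its background effect (0.77, SE 0.14, FDR 6.31e-06) was close to that of anchors with few repeats. Whether D2 reads map less well than B6 reads to a B6 reference was not tested.

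Genes that act on histone genes or histones were compared through their own anchors. Of 25 factors of histone gene transcription and mRNA processing, 23 had a tested anchor. In the background effect 2 rose and 3 fell, a share called near the 24.8% of all tested anchors, with a median log2 fold change of 0.00. Npat, the coactivator of the histone locus body, had 30.7 ± 6.34 CPM in B6 and 28.4 ± 11.3, 26.8 ± 2.44 and 27.4 ± 9.94 in D2, B6-13D2 and D2-13B6 (background effect -0.03, FDR 0.944). Slbp, which binds the stem-loop of histone mRNA, had 132 ± 9.35, 163 ± 10.3, 136 ± 26.1 and 134 ± 2.54 (0.15, FDR 0.338). Hinfp, a transcription factor of H4 genes, shares its anchor with H2afx, and this anchor was higher in the D2 background (0.25, SE 0.08, FDR 0.0118) and in the congenic lines (0.25, SE 0.08, FDR 0.0436). Nfyb, a subunit of the CCAAT-binding factor, rose in the D2 background (0.29, SE 0.09, FDR 0.00808), while Nfyc, another subunit, fell (-0.26, SE 0.09, FDR 0.0209) and was higher with the D2 interval (0.33, SE 0.09, FDR 0.0103). Lsm10, a component of the U7 particle that cuts histone mRNA, fell by 0.56 in log2 units (SE 0.11, FDR 1.93e-05), and Cdk2 fell by 0.21 (SE 0.08, FDR 0.0344).

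Of 11 replication-independent histone genes, which make histones outside S phase, 4 rose in the background effect and 2 were higher in the congenic lines, where 11.9% and 3.79% of all tested anchors were higher. The 4 were H2afj, on the anchor of Hist4h4, H3f3b (0.32, SE 0.09, FDR 0.00484), H2afv on chromosome 11 (0.28, SE 0.09, FDR 0.0115) and H2afx on the anchor of Hinfp. Their median was 0.03, and the largest of the 4, at 0.46, was that of the anchor shared with Hist4h4. Of 12 histone chaperones, 1 rose in the background effect (Rbbp7, 0.45, SE 0.10, FDR 0.000326) and 4 were higher in the congenic lines, against the same 11.9% and 3.79%. These were Atrx (0.33, SE 0.09, FDR 0.0114), Daxx (0.32, SE 0.08, FDR 0.00559), Hat1 (0.32, SE 0.08, FDR 0.00843) and Chaf1b (0.25, SE 0.07, FDR 0.0239). Of the embryonic stem cell markers, 4 of 9 tested anchors were higher in the D2 background (median 0.16; 11.9% of all) and 3 were higher in the congenic lines (median 0.17; 3.79% of all), among them Sox2 (background effect 0.48, SE 0.08, FDR 4.23e-06). Their part in the differences at the histone genes was not tested. Neither RNA nor cell cycle phase was measured in these libraries, and the share of cells in S phase was not tested.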

How the data were processed

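The authors deposited counts, whole numbers of read pairs per loop and not normalized, in 1 table of all 8 libraries and in 1 list of 5-kb bin pairs per library. The submitters' processing notes name the build mm10 and the tools BWA 0.7.18, SAMtools 1.19.2 and edgeR 3.34.1, with no role or order, and the loop caller is not given in the sources used here. Every column of per-sample values matched a sample. Members, lists, tests and the rule for named loops were chosen with earlier results of these data known. The rule named every histone anchor, the called histone loops with the 6 smallest FDR in each contrast, the 10 loops between subclusters with most counts, and listed genes with a called anchor.

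Loops with at least 5 counts in 2 libraries and anchor sums with at least 10 counts in 2 libraries entered a quasi-likelihood fit (edgeR 4.0.16, R 4.3.3) scaled by TMM, with a mean for each line. Benjamini-Hochberg adjustment ran over every loop, or every anchor, that was tested. The code of the fit was run on counts simulated with an assumed spread and with changes placed only in loops of many counts. No conclusion about the sparser loops is drawn from that run. An SE is the log2 fold change over the square root of its F statistic. Background effect means D2 and D2-13B6 minus B6 and B6-13D2, averaged, and the interval effect and congenic minus parental are built likewise. Levels are CPM computed here from library totals. CPM of the 4 classes were compared by exact two-sided permutation tests with scipy 1.17.1. Counting precision is limited by 737955 to 1425304 counts per library, and read pairs carry no molecular identifiers. DESeq2 1.42.0, other scalings, filters, distances, the replicate block and each library left out were the alternatives.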

Additional observations from a re-analysis of the deposited data

Results flagged for a closer look

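Among the 4 libraries of the D2 and D2-13B6 lines, D2-13B6 replicate 2 stood apart in contacts between subclusters, at 216 CPM. Its gap to the nearest library was more than the Dixon limit for 4 values allows, which chance passes in about 1 of 20 groups, and 24 groups were looked at.

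The effect of the interval differed between the backgrounds at 11 of 16 histone anchors by the interaction term of the edgeR fit, where 4.83% of all tested anchors were called. At these 11 the fitted interval effect was larger in the B6 background. In the D2 background it was called below 0 at Hist1h1b, Hist1h1d, Hist1h1a, Hist2h2be and Hist2h4. At the other 6 it was not called in this fit, which shows no reversal there. These calls depend on the processing. Of the 16 anchors, 2 were called below 0 with DESeq2 and 9 with a scaling factor per chromosome. With a library left out, the median of D2 minus D2-13B6 over the 16 ran from -0.51 to -0.18, against -0.37 with all libraries. The interaction values given next are the interval effect in the D2 background minus that in the B6 background, on the log2 scale. They were -1.30 at Hist1h3h, -1.33 at Hist1h4k, -1.55 at Hist1h1b, -1.12 at Hist1h4n, -0.81 at Hist1h4i, -1.61 at Hist1h1d, -1.63 at Hist1h2bc, -1.67 at Hist1h4c and -2.01 at Hist1h1a on chromosome 13, and -1.20 at Hist2h2be and -1.27 at Hist2h4 on chromosome 3. Of all tested loops 0.606% were called, and for the loops named in that contrast the values were -1.85 inside Hist1h1d, -2.24 inside Hist1h1a, -1.73 inside Hist1h3h and -1.51 inside Hist2h4. They were -1.78 between Hist1h4k and Hist1h1b, and -1.85 between Hist1h3h and Hist1h1b. The interaction is the contrast of congenic with parental lines times -2, and the congenic libraries were the deeper ones. What makes these lines differ was not tested.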

How the results depend on the processing

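The 64 named log2 fold changes had 1086 values under the alternatives, of which none changed sign and 88, 17 of them with DESeq2, no longer passed the threshold. For counts of called histone loops, DESeq2 gave 17 in the background effect, 0 in the interval effect (8 at an unadjusted p under 0.05), 10 in D2 minus B6, 8 in B6-13D2 minus B6 and 2 in D2 minus D2-13B6. It gave no adjusted p for 62 to 117 of the 127 loops. Without a filter on low counts there were 23 calls in the background effect, 11 in D2 minus B6 and 0 in the interval effect (29 unadjusted). The interval effect had 0 calls with a scaling factor per chromosome (14 unadjusted) and at an FDR of 0.01 (22 unadjusted), and 2 with the replicate block. For anchors, it had 3 calls with a scaling factor per chromosome and 3 with DESeq2.

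Leaving out each library in turn gave 24 to 35 loops in the background effect, 0 to 4 in the interval effect, 6 to 11 in congenic minus parental, 11 to 23 in D2 minus B6, 3 to 15 in B6-13D2 minus B6 and 0 to 6 in D2 minus D2-13B6, with edgeR. For anchors it gave 13 to 15, 2 to 7 and 9 to 13 in the first 3 contrasts. The zero counts had 7 to 20 loops at an unadjusted p under 0.05.

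Among the class values, the interval effect between subclusters was -22.3 when counts were scaled to the chromosome 13 total and -9.13 to 47.8 CPM with a library left out. With a library left out, that inside anchors ran from -146 to 169, that within a subcluster from -3.61 to 171, and congenic minus parental to other anchors from -27.2 to 126. None of these passed a test. The labels do not say that replicate numbers mark a shared batch, and deviations of same-numbered libraries had correlations of -0.05 to 0.01, so the numbers do not pair the libraries. With the replicate block the background effect had 38 called loops. Depth limits the loops, of which 127 of 724 had enough counts to be tested.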
